A study of Caenorhabditis elegans with 9 samples.

Results

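The histone genes of Caenorhabditis elegans were followed on 9 whole-genome arrays, through the 53 probe sets whose annotated genes all carry a his- symbol or are htz-1. These 53 of 22548 worm probe sets cover all 73 histone genes of that naming in the RefSeq annotation. Because the coding sequences of the core histone genes are nearly alike, 30 probe sets were assigned to 1 gene and 23 to several, up to 14. Each probe set is therefore kept as a unit and written with all of its genes, as his-64/his-56/his-46, and units with the same genes are told apart as (a) and (b). A further probe set, annotated to 12 histone genes and 5 non-coding RNAs, did not meet the rule and was left out.

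Total RNA came from synchronized whole animals of the wild type strain Bristol N2, grown at 20°C on a lawn of Escherichia coli OP50 and harvested as L4 larvae, as adults at Day 6 and as adults at Day 15. Each age had 3 arrays, from 3 populations propagated independently. Both adult groups were kept from the L4 stage on plates with 0.05 mg/ml 5-fluorodeoxyuridine (FUdR), which blocks DNA synthesis and so stops progeny, whereas L4 animals were harvested without exposure. Development, adult age and FUdR therefore cannot be told apart in the comparisons with L4. Both adult groups had the drug, but Day 15 animals had been on it for longer than Day 6 animals. Age and length of exposure therefore cannot be told apart between the adult groups. The values are log2 expression values, and since each probe set has its own binding, levels are compared between ages and never between probe sets.

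Histones are the proteins around which DNA is wound. Pairs of H2A, H2B, H3 and H4 form the nucleosome core, and H1 binds the linker DNA between cores. Most core histone genes of the worm lie in clusters, lack introns, and give messages that end in a stem-loop in place of a poly(A) tail and are made chiefly while DNA is replicated. Replacement variants such as H3.3 and H2A.Z (HTZ-1) are put into chromatin outside of replication, and they come from separate genes. In the worm, the adult germline is the tissue in which cells go on dividing, since the somatic cells of the adult no longer do.

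The 9 arrays were of like scale, with medians between 5.42 and 5.73 and between 59.9% and 61.6% of probe sets at a log2 value of at least 4. L4 replicate 2 stood apart for the histones: it read above both other L4 arrays in 35 of 49 histone units, against 42% of all probe sets tested. The mean of the oocyte and eggshell markers was 8.12, 11.1 and 9.39 on L4 replicates 1, 2 and 3, and that of the DNA replication genes was 7.84, 9.43 and 8.48. Day 6 replicate 1 read above both other Day 6 arrays in 34 of 49 histone units, against 32.3% of all probe sets. The part of these 2 arrays in the results was not tested, beyond the values without each of them that are given below. All 28 markers of intestine, body wall muscle, neurons and epidermis passed the minimum level in at least 1 age, and 15 of them were lower at Day 15 than at Day 6 and none higher. Of all probe sets tested, 16.5% were lower and 14.9% higher by the same rule, given below. In RNA from whole animals, fewer cells of a type and less RNA per cell cannot be told apart.

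Between Day 6 and Day 15, 16 of the 49 histone units tested rose and 1 fell, and 7 H4 units and 5 H2B units were among those that rose. A unit was tested where its mean was at least 4 in at least 1 age, and called where the adjusted p was under 0.05 and the change at least 2-fold (limma, Benjamini-Hochberg over all 15452 probe sets tested). By the same rule 14.9% of all probe sets rose and 16.5% fell. The median change was 0.62 (log2) over the histone units and -0.02 over all probe sets. The 3 Day 15 values lay above the 3 Day 6 values in 32 of 49 units and below them in 4, against 32.3% and 33.4% of all probe sets. Of the units tested, his-34/his-29, his-67 and his-20/his-8/his-54/his-22/his-52 (b) met the minimum level at Day 15 alone and so had to read higher there, and the first 2 of these are among the 16. The other 4 units, his-4, his-39, his-40/his-17 and his-69, were below it at every age and were not tested. Leaving out any single array gave between 16 and 19 called units.

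**Figure D1:**
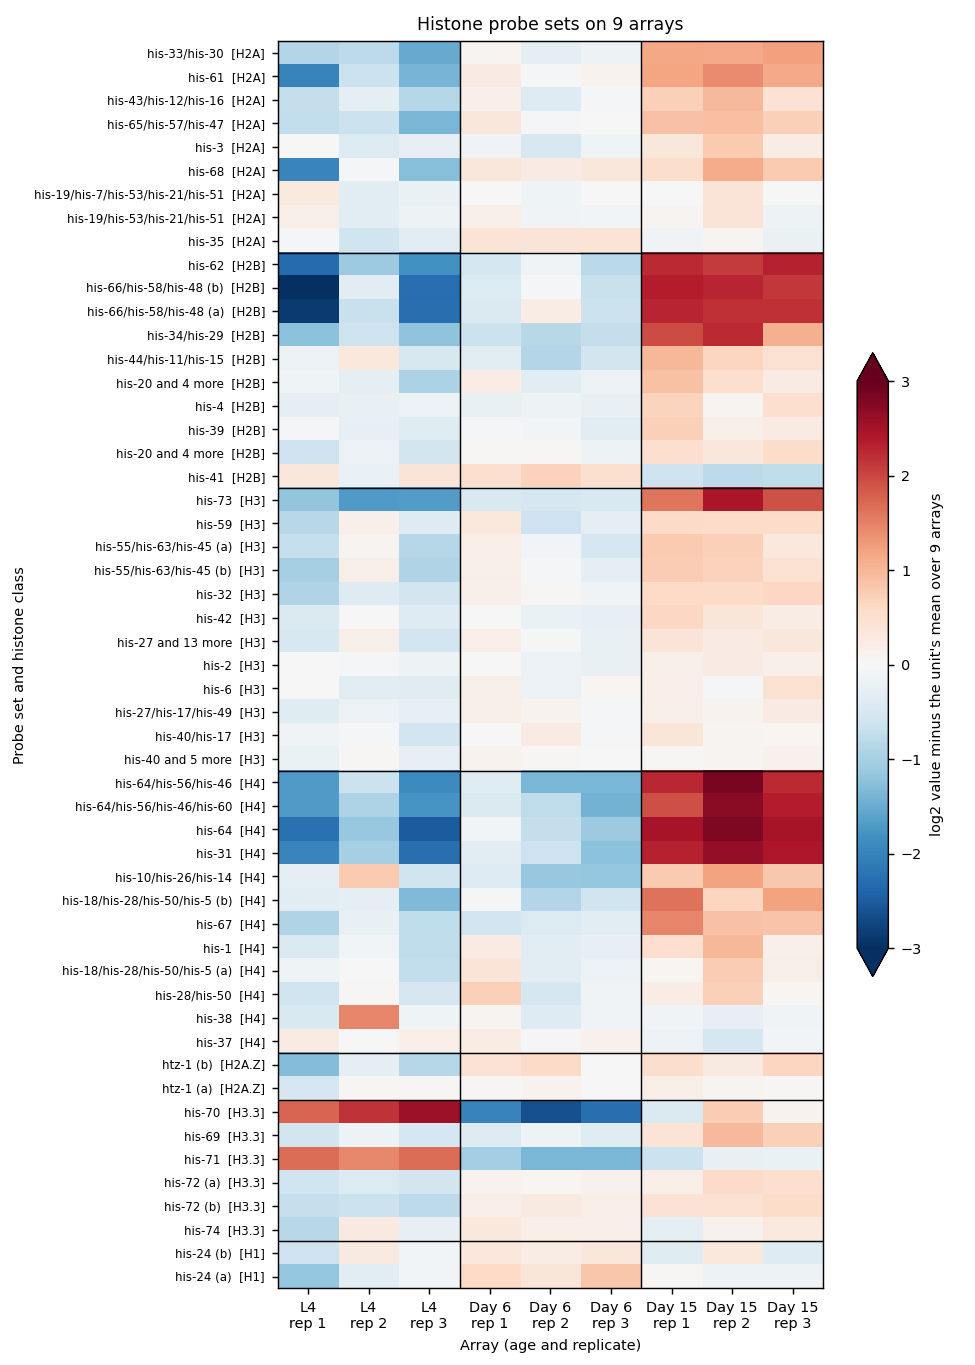
Each row is 1 of the 53 histone probe sets with its class in brackets, each column 1 array, and the colour is the log2 value minus that unit's mean over the 9 arrays, from blue (lower) to red (higher). The H4 and H2B units at the top of their blocks are red on all 3 Day 15 arrays, whereas his-70 and his-71 are red on the 3 L4 arrays.

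By class, 7 of 12 H4 units rose between Day 6 and Day 15 and none fell, with a median change of 1.58. The unit his-64/his-56/his-46 read 8.72, 7.72 and 7.72 on the Day 6 arrays and 11.36, 11.95 and 11.34 on the Day 15 arrays. The lowest Day 15 value was thus far above the highest Day 6 value. The rise was 3.50 (SE 0.40, adjusted p = 0.000114), or 11.3-fold, the largest of any histone unit in this comparison. The unit of his-64 alone rose from 8.42 ± 0.50 to 11.63 ± 0.18 (mean ± SD, n = 3), and that of his-64/his-56/his-46/his-60 from 5.47 ± 0.50 to 8.68 ± 0.39. The unit of his-31 read 6.75, 6.45 and 5.84 at Day 6 and 9.38, 9.70 and 9.49 at Day 15, a rise of 3.18 (SE 0.35, adjusted p = 9.52e-05). Smaller rises were seen for his-10/his-26/his-14, by 1.83 (SE 0.37), for his-18/his-28/his-50/his-5 (b), by 1.67 (SE 0.37), and for his-67, whose Day 6 mean of 3.49 was under the floor of 4. With values under 4 set to 4 its change was 0.99 and the call was lost. The (a) unit of the same his-18 group changed by 0.38 (adjusted p = 0.341), so that the 2 units of these 4 genes disagree.

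The H4 unit of his-37 did not follow. It read 12.13 ± 0.13 in L4, 12.09 ± 0.13 at Day 6 and 11.73 ± 0.22 at Day 15. Its 3 Day 15 values of 11.80, 11.49 and 11.91 lay just below the 3 Day 6 values of 12.20, 11.95 and 12.11, and the change of -0.35 was not called (adjusted p = 0.146). The remaining units, his-1, his-28/his-50 and his-38, changed by 0.66, 0.30 and -0.02, and none was called.

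Of the 8 H2B units tested, 5 rose and 1 fell, with a median change of 1.89. The median was 0.96 with no filter on low values. Over single-gene units it was 0.71, but only his-62 and his-41 were tested there, with changes of 2.70 and -1.28. The largest rise was that of his-62, which read 6.75, 7.16 and 6.46 at Day 6 and 9.51, 9.38 and 9.59 at Day 15. The change was 2.70 (SE 0.31, adjusted p = 0.000121), or 6.51-fold. The 2 units of his-66/his-58/his-48 rose by 2.51 (SE 0.50) and 2.63 (SE 0.57), and the 3 Day 15 values of the (a) unit, 11.52, 11.44 and 11.43, were close to each other. The unit of his-34/his-29 was near the floor in L4 and at Day 6, at 3.34 ± 0.35 and 3.63 ± 0.09, and reached 6.12 ± 0.62 at Day 15, at least 4.35-fold higher than at Day 6 with the Day 6 mean taken at the floor of 4 (adjusted p = 0.0002). The unit of his-44/his-11/his-15 rose by 1.30 (SE 0.26). The 2 units of his-20/his-8/his-54/his-22/his-52 changed by 0.62 and 0.48 and were not called.

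The single histone unit that fell was that of his-41, another H2B gene. It read 11.06, 11.25 and 11.03 at Day 6 and 9.94, 9.77 and 9.79 at Day 15, a change of -1.28 (SE 0.20, adjusted p = 0.000684). The L4 values were 10.90, 10.37 and 10.94, so that Day 15 was the lowest of the 3 ages without overlap. The H2B units thus held both the single fall and several of the largest rises.

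Of 9 H2A units, 2 rose between Day 6 and Day 15, against 14.9% of all probe sets tested, with a median change of 0.69. These were his-33/his-30, from 7.51, 7.13 and 7.27 to 8.57, 8.55 and 8.66 (change 1.29, SE 0.22, adjusted p = 0.00141), and his-61, from 8.21, 7.92 and 8.06 to 9.16, 9.38 and 9.10 (change 1.15, SE 0.31, adjusted p = 0.0155). The call on his-61 was lost without Day 6 replicate 2 (adjusted p = 0.0555) and without Day 15 replicate 2 (0.0557). Other H2A units did not pass. Those of his-43/his-12/his-16, his-65/his-57/his-47, his-3 and his-68 changed by 0.80, 0.74, 0.69 and 0.50, under 2-fold. That of his-19/his-7/his-53/his-21/his-51 changed by 0.17. In 6 of the 9 H2A units the 3 Day 15 values lay above the 3 Day 6 values, and in 1 below. The shares of all probe sets were 32.3% and 33.4%. The unit of his-35 read 10.61 ± 0.28, 11.36 ± 0.02 and 10.88 ± 0.14 at L4, Day 6 and Day 15, and that of his-19/his-53/his-21/his-51 read 10.26 ± 0.25, 10.36 ± 0.15 and 10.47 ± 0.26.

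Of 11 H3 units, the 1 that rose was his-73, with a median over the class of 0.55. The gene his-73 stands alone on chromosome II, apart from the clusters. In RefSeq it spans 141 bases, shorter than every other H3 gene here. It was placed in H3 by its name, and whether it codes for a full H3 was not examined. The unit of his-73 read 4.28, 3.76 and 3.80 in L4, 5.02, 4.97 and 5.02 at Day 6, and 7.08, 7.92 and 7.37 at Day 15. The 3 ages did not overlap at any step, and the later step was 2.45 (SE 0.24, adjusted p = 5.04e-05). The other 10 H3 units changed by 0.04 to 0.75. The (a) and (b) units of his-55/his-63/his-45, read 10.20 ± 0.35 and 9.89 ± 0.22 at Day 6 and 10.94 ± 0.26 and 10.58 ± 0.16 at Day 15, under 2-fold. The unit shared by 14 H3 genes changed from 8.21 ± 0.21 to 8.57 ± 0.07.

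The units were also arranged by the place of their genes. The array's annotation gives no genome build, so that only the chromosome and which histone genes neighbour each other are used here, from RefSeq, and histone genes were grouped where the gap to the next was at most 100 kb. The grouping was made after the values had been seen and carries no test. Of the 15 core units whose genes all lie on chromosome IV, 10 rose between Day 6 and Day 15, the 3 Day 15 values lay above the 3 Day 6 values in all 15, and the median change was 2.49. Of 5 on chromosome II, 3 rose, with a median of 1.30. Of the 12 tested on chromosome V outside the his-35, his-37 and his-41 neighbourhood, 1 rose, with a median of 0.35. That neighbourhood held the single fall: the changes of his-35, his-41 and his-37 were -0.48, -1.28 and -0.35, and in each the 3 Day 15 values lay below the 3 Day 6 values. Over all probe sets tested, 14.9% rose and 16.5% fell, and 32.3% lay above and 33.4% below without overlap. These genes are also longer in RefSeq, at 630, 729 and 503 bases. Most H2A genes span 384 bases, most H2B genes 369 or 372 and most H4 genes 312. The part of gene structure in the changes was not tested. 

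In the 3 groups of neighbours on chromosome IV, the H2B units changed more than the H2A unit. So did the H4 units of the 2 groups that had one of their own. The H3 unit changed least among his-29 to his-34 and among his-59 to his-62. Around his-64 the H2A and H3 units changed about alike. Among the 12 genes around his-64, the 2 H4 units rose by 3.50 and 3.21, the 2 H2B units by 2.63 and 2.51, and short of the call the H2A unit of his-65/his-57/his-47 changed by 0.74 (adjusted p = 0.0279) and the 2 H3 units by 0.73 and 0.69. Among his-29 to his-34, the H4 unit of his-31 rose by 3.18, the H2B unit at least 4.35-fold from below the floor and the H2A unit by 1.29, or 2.44-fold, and the H3 unit of his-32 changed by 0.57 (adjusted p = 0.0307). Among his-59 to his-62, where his-60 was read only by an H4 unit shared with the genes around his-64, the H2B unit of his-62 rose by 2.70 and the H2A unit of his-61 by 1.15, and the H3 unit of his-59 changed by 0.75. The genes his-31 and his-32 show the contrast on single arrays. The log2 value of his-31 minus that of his-32, whose zero has no meaning between probe sets, lay between -0.97 and -0.32 on the Day 6 arrays and between 1.87 and 2.2 on the Day 15 arrays. Their changes differed by 2.60, and those of his-62 and his-59 by 1.96. These pairs were picked for their difference, which was not tested. The units of his-31, his-32, his-59 and his-62 all end in _x_at, the suffix of probe sets with shared probes.

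**Figure D2:**
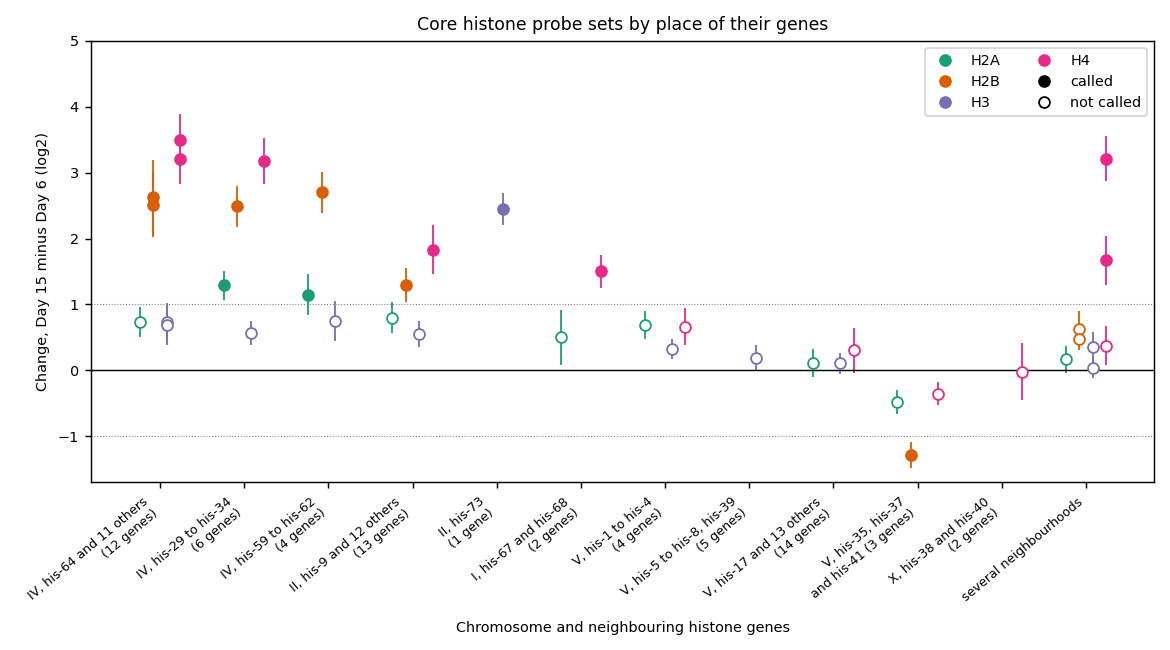
Each point is a tested core histone unit, placed by the chromosome and neighbourhood of its genes, with the change from Day 6 to Day 15 in log2 on the vertical axis and 1 SE of the limma fit as the bar. Filled points were called and dotted lines mark a 2-fold change: the H4 and H2B units of chromosome IV lie between 2.49, from a Day 6 mean under the floor, and 3.50 and the chromosome V units below 1, but for 1 at 1.67.

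Of the 16 units that rose, 7 belong to units with 1 gene and 9 to units with several, so that for the latter the gene behind the rise cannot be named. Of the 7, those of his-31, his-61, his-62 and his-64 carry the shared-probe suffix _x_at, so that related messages may add to them. The unit of his-64 alone and the 2 that add its relatives his-56, his-46 and his-60 rose by 3.21 to 3.50, and they share probe matches and are not independent readings. The (a) and (b) units of the same genes are not independent either, so that counts by class and by chromosome hold some genes more than once. Of the 10 units without a shared-probe suffix (_at), 8 were tested, and 4 rose and 1 fell. The means of the sperm markers were 9.79, 8.74 and 9.37 on the Day 6 arrays and 11.3, 11.4 and 11.5 on the Day 15 arrays, and 26 of 26 of these markers rose. Of 13 germline markers 1 rose by the call. In 10 of the 13 the 3 Day 15 values lay above the 3 Day 6 values, and the median change was 0.54. Of 11 oocyte and eggshell markers none was called. In 9 of the 11 the Day 15 values lay below the Day 6 values, and the median was -0.61. Of all probe sets tested, 14.9% were called higher, and 32.3% lay above and 33.4% below without overlap. The part of a changed share of germline, sperm or somatic RNA in the histone values was not tested.

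The H3.3 genes, which code for the replication-independent form of H3, differed among themselves in direction. The unit of his-71 read 11.31, 11.08 and 11.31 in L4, 8.60, 8.26 and 8.26 at Day 6, and 8.99, 9.41 and 9.44 at Day 15. The fall from L4 to Day 6 was 2.86 on the log2 scale (SE 0.19, adjusted p = 3.15e-06), or 7.26-fold, without overlap. The later change of 0.91 (SE 0.19, adjusted p = 0.00469) stayed under 2-fold, and at Day 15 the unit was still 1.95 below L4. The his-72 gene, also for H3.3, read higher in adults than in L4, opposite to his-71. From L4 to Day 6 its (a) and (b) units changed by 0.61 and 0.93, under 2-fold. Between Day 6 and Day 15 they changed by 0.34 and 0.27, the same direction as his-71, and were not called. Both end in _x_at and the his-71 unit in _s_at, suffixes of probe sets with shared probes, so that related messages may add to them. Its (b) unit read 10.80, 10.86 and 10.72 in L4, 11.69, 11.78 and 11.69 at Day 6, and 11.94, 11.96 and 12.06 at Day 15, and from L4 to Day 15 it rose by 1.19 (SE 0.15, adjusted p = 8.98e-05). The (a) unit read 8.08 ± 0.10, 8.69 ± 0.03 and 9.03 ± 0.19 at the 3 ages and did not reach 2-fold.

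The largest fall of any histone unit was that of his-70, another gene of H3.3 type. It read 7.67, 8.10 and 8.51 in L4, 3.92, 3.3 and 3.67 at Day 6, and 5.51, 6.70 and 6.04 at Day 15. The 3 ages did not overlap. The fall from L4 to Day 6 was 4.46 on the log2 scale (SE 0.34, adjusted p = 6.09e-06), at least 17.1-fold with the Day 6 mean taken at the floor of 4, and the rise to Day 15 was at least 4.24-fold on the same floor (adjusted p = 0.000368). The sperm markers moved in the same 2 directions, 26 of 26 falling from L4 to Day 6 and 26 of 26 rising from Day 6 to Day 15. Their mean was between 11.6 and 12 on the L4 arrays, and their part in the his-70 values was not tested. The neighbouring gene his-69 was under the minimum at every age, at 2.71 ± 0.22, 2.82 ± 0.13 and 3.82 ± 0.29. The unit of his-74 read 11.26 ± 0.56, 11.76 ± 0.07 and 11.57 ± 0.31, and was called in no comparison.

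The H2A.Z gene htz-1 had 2 units that disagreed. The (b) unit read 9.78, 10.81 and 10.23 in L4, 11.51, 11.66 and 11.09 at Day 6, and 11.62, 11.35 and 11.73 at Day 15, with a rise of 1.15 from L4 to Day 6 (SE 0.28, adjusted p = 0.00591) and a change of 0.15 thereafter. The (a) unit stayed between 8.04 ± 0.32 and 8.28 ± 0.07. The H1 gene his-24 also had 2 units. The (a) unit rose from 4.54 ± 0.57 in L4 to 5.66 ± 0.24 at Day 6 (change 1.12, SE 0.28, adjusted p = 0.00674) and was 4.98 ± 0.11 at Day 15, whereas the (b) unit read 6.61 ± 0.44, 7.04 ± 0.06 and 6.60 ± 0.40 and was called in no comparison. Without L4 replicate 1 the changes of htz-1 (b) and his-24 (a) were 0.90 and 0.80, under 2-fold. Neither gene was among those that rose between Day 6 and Day 15.

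**Figure D3:**
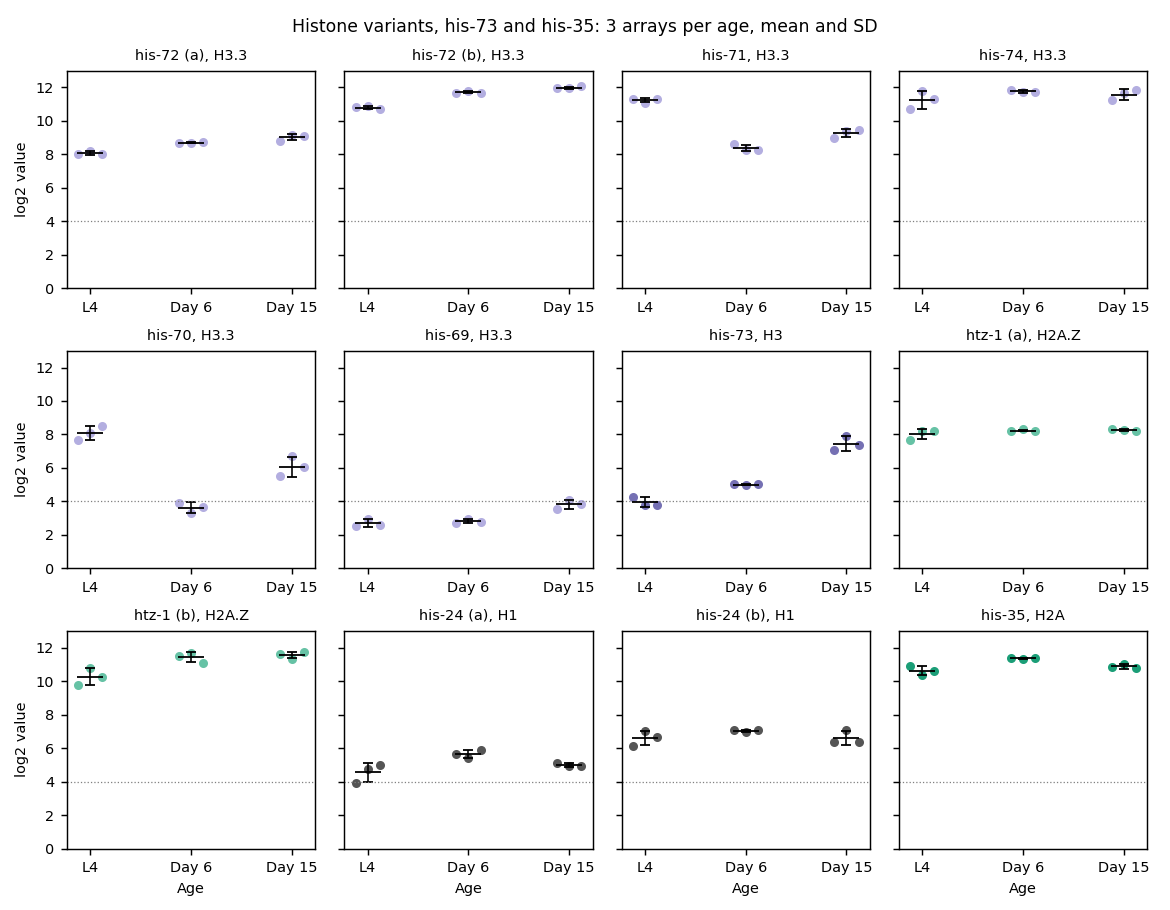
Each panel is a unit of a variant histone gene, of his-73 or of his-35, with the 3 arrays of L4, Day 6 and Day 15 as points on the log2 scale, their mean as a dash and 1 SD as the bar, and the dotted line at the minimum level of 4. The unit of his-70 runs from 8.09 to 3.63 and back to 6.08, his-71 from 11.23 to 8.37 and 9.28, and his-73 from 3.95 to 5 and 7.46.

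Between L4 and Day 6, 11 of the 49 units rose and 2 fell, while 30.1% of all probe sets rose and 22.8% fell, and the median change was 0.38 against 0.23. The 2 that fell were his-70 and his-71. The risers were 3 of 9 H2A units, 3 of 8 H2B units, 2 of 12 H4 units, 1 of 11 H3 units, htz-1 (b) and his-24 (a). The largest rise by class was 1.65 (SE 0.50) for the H2B unit his-66/his-58/his-48 (a), 1.44 (SE 0.31) for the H2A unit his-61, 1.32 (SE 0.37) for the H4 unit his-64 and 1.06 (SE 0.24) for his-73, which was 0.91 with values under 4 set to 4. The unit of his-73 met the minimum level at Day 6 and Day 15 but not in L4, and was tested only through ages in which it read above L4. Of the 15 core units of chromosome IV, 7 rose, and of the 12 of chromosome V none did. The L4 arrays were wide apart in some of these units. The chromosome IV unit his-66/his-58/his-48 (a) read 6.36, 8.57 and 6.98 in L4 and 8.80, 9.45 and 8.60 at Day 6, and the H2A unit his-68, on chromosome I, read 7.22, 9.14 and 7.92 before 9.54, 9.46 and 9.54. The count of 13 called units fell to 8 without L4 replicate 1 and was 13 without L4 replicate 2. Without Day 6 replicate 1 it was 11. The calls on his-61, his-70 and his-71 were kept in every alternative in which they were tested.

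Over the whole span from L4 to Day 15, 21 of 49 units rose and 2 fell, against 32.5% and 25.7% of all probe sets, with a median of 0.95 against 0.26. This comparison shares its L4 and Day 15 arrays with the other 2. Among the 21, his-67 and the chromosome IV unit his-34/his-29 met the minimum level at Day 15 alone, and his-73 at Day 6 and Day 15 alone. These units were tested only through ages in which they read above L4. The 2 that fell were again his-70 and his-71. On chromosome IV 14 of 15 core units rose, on chromosome II 2 of 5, and on chromosome V 1 of 12. The largest rise was that of his-64, from 6.82, 7.91 and 6.56 in L4 to 11.52, 11.84 and 11.52 at Day 15, a change of 4.53 (SE 0.37, adjusted p = 7.67e-06) or 23.1-fold. In the H2B class it was that of his-66/his-58/his-48 (a), by 4.16 (SE 0.50), in the H2A class that of his-61, by 2.59 (SE 0.31), and in the H3 class that of his-73, at least 11-fold with its L4 mean taken at the floor of 4. The H3 units his-32 and his-55/his-63/his-45 (a) and (b) also passed over this span, with rises of 1.21, 1.09 and 1.21. The (a) unit fell under 2-fold without L4 replicate 1 (0.99), without L4 replicate 3 (0.91) and after quantile normalization (0.95), and both (a) and (b) lost the call under the methods' t-test after adjustment. Without L4 replicate 2, 31 units were called in place of 23.

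Genes for DNA replication and for the handling of histones were examined beside them, in lists set by function. The counts of each list stand beside the shares of all probe sets tested. From L4 to Day 6, 30.1% rose and 22.8% fell, and from Day 6 to Day 15, 14.9% rose and 16.5% fell. Of 39 DNA replication genes tested, 34 rose between L4 and Day 6, with a median change of 1.96, and 2 rose between Day 6 and Day 15, with a median of 0.20. These 2 were psf-2, a subunit of the GINS complex of the replication fork, by 1.13 (SE 0.35), and rfc-2, a subunit of the clamp loader, by 1.11 (SE 0.39). Of 21 genes for histone chaperones and exchange factors, 15 rose in the earlier step, among them chaf-1, a subunit of the chromatin assembly factor, by 3.70, and none passed in the later one. The medians of these lists in the later step, 0.20 and 0.26, are given beside the 1.58 and 1.89 of the H4 and H2B units. The difference was not tested. Over single-gene units the H4 and H2B medians were 1.08 and 0.71. The latter rests on his-62 and his-41 alone, which changed in opposite directions.

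Of 12 genes for the processing and decay of histone messages, 3 rose between L4 and Day 6 and 2 between Day 6 and Day 15. Of all probe sets tested, 30.1% and 14.9% rose in these steps. The gene cdl-1, whose product binds the stem-loop at the end of histone messages, read 7.47, 10.59 and 8.85 in L4, 11.40, 11.47 and 11.04 at Day 6, and 10.28, 10.59 and 10.72 at Day 15. It rose by 2.33 in the earlier step (SE 0.64, adjusted p = 0.0101). Its 3 Day 15 values lay below the 3 Day 6 values, and the change of -0.77 was not called (adjusted p = 0.369). The 2 that rose later were cpsf-2, a subunit of the cleavage and polyadenylation factor, by 1.38 (SE 0.38), and csr-1, a germline Argonaute, by 1.02 (SE 0.22).

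Among linker and centromeric histones outside the his- names, hil-1, an H1-like gene, rose by 4.58 from L4 to Day 6 (SE 0.57, adjusted p = 0.000126). Of the 10 genes of this kind, 5 rose in that step, among them the centromeric H3 gene hcp-3, by 1.01, and its relative cpar-1, by 2.95. The 1 that rose between Day 6 and Day 15 was hil-8, from 3.92 ± 0.33 to 5.32 ± 0.51 (at least 2.49-fold with the Day 6 mean taken at the floor of 4, adjusted p = 0.00504). Shares of all probe sets tested that rose were 30.1% in the earlier step and 14.9% in the later one.

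Of 24 genes for histone methylation and demethylation, 17 rose and 1 fell between L4 and Day 6, and 3 rose and 2 fell between Day 6 and Day 15. The shares of all probe sets tested were 30.1% and 22.8% in the earlier step and 14.9% and 16.5% in the later one. The H3K4 demethylase gene lsd-1 rose by 5.32 (SE 0.21) and then fell by 1.2 (SE 0.21, adjusted p = 0.00168). The H3K4 methyltransferase gene set-16 fell by 1.71 (SE 0.42) in the later step, and the demethylase gene jmjd-1.1, which read 5.01 ± 0.67, 2.66 ± 0.14 and 5.23 ± 0.31, rose at least 2.35-fold with its Day 6 mean taken at the floor of 4 (adjusted p = 0.000211). Of 13 genes for acetylation and deacetylation, 8 rose in the earlier step, and 2 rose and 2 fell in the later one. The deacetylase gene hda-5 fell from 10.59 ± 0.22 to 8.07 ± 0.31 (change -2.52, SE 0.26, adjusted p = 6.56e-05) and the sirtuin gene sir-2.2 by 1.27 (SE 0.22), while hda-2, a class I deacetylase gene, rose by 1.11 (SE 0.19). Whether the products of hda-5, sir-2.2 and hda-2 act on histones was not examined here.

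From Day 6 to Day 15, the sperm genes that rose most were ssp-16, at least 17.5-fold with its Day 6 mean taken at the floor of 4, and gsp-3 and gsp-4, by 3.93 and 3.77. The last pair code for sperm phosphatases. In the germline list the 1 gene that rose was syp-1, of the synaptonemal complex, by 1.33 (SE 0.24).

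**Figure D4:**
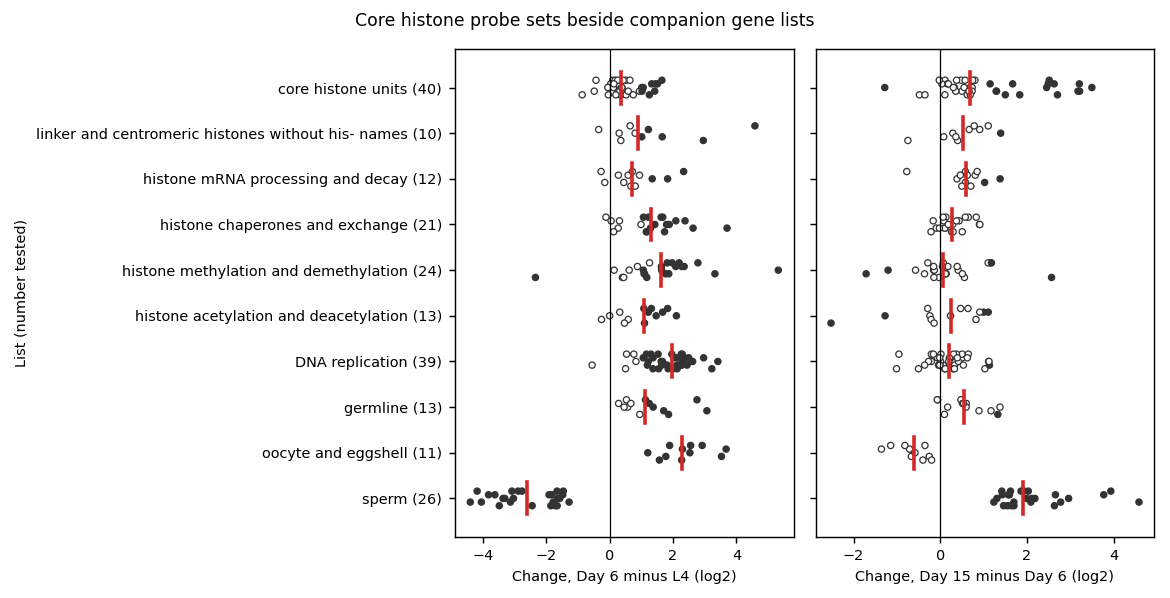
Each point is a core histone unit or a gene of a companion list, with the change in log2 from L4 to Day 6 on the left and from Day 6 to Day 15 on the right, filled where called, and the red line is the median of the list. The 39 DNA replication genes have medians of 1.96 and 0.20 in the 2 steps, the 40 core histone units 0.36 and 0.69, and the 26 sperm genes -2.61 and 1.90.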

How the data were processed

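The deposited table holds log2 values for 22625 probe sets (77 of them array controls) on 9 Affymetrix C. elegans arrays. Per the labels and the methods, the authors amplified 100 ng of total RNA with the NuGEN Ovation kit and normalized the arrays with GCRMA. Whether priming relied on poly(A) tails, which replication-dependent histone messages lack, is not given in the sources used here. GCRMA pulls low signals to a floor, so changes from low levels are understated, and shared probes mix the messages of near-identical genes. The MAS5 present calls were not used here. All 3 ages entered 1 limma fit (3.58.1, R 4.3.3) with a moderated variance, over worm probe sets with a mean of at least 4 in at least 1 age. Probe sets were named from the platform annotation: 20766 with 1 gene, 887 with several and 895 with none. Places of genes came from RefSeq. The class of each histone gene was taken from its name and was not checked on protein sequence. The fit was tested on simulated data. The number of arrays limits the precision.

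The members and gene lists were chosen with earlier results of these data known. Every histone unit is in the counts, but not every one is named with its values. Those given in full are the variants, his-35 and his-73, in each core class the 2 units with the highest means and the largest called changes, and in each list of the histone machinery, germline, oocyte and sperm up to 3 genes with the largest called change from Day 6 to Day 15, besides cdl-1. The markers of intestine, muscle, neurons and epidermis are given as counts. The genes his-31, his-32, his-59, his-68, hil-1, hcp-3, cpar-1 and chaf-1 and some smaller risers were named after their values were seen. Alternatives changed the filter, scaling, variance model, test, thresholds, set of units and arrays left out.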

Additional observations from a re-analysis of the deposited data

How the results depend on the processing

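Leaving out any single array gave 8 to 13 called histone units from L4 to Day 6, 16 to 19 from Day 6 to Day 15 and 22 to 31 from L4 to Day 15, with main counts of 13, 17 and 23. With 1 probe set per gene, and likewise with single-gene units only, 8 were called from Day 6 to Day 15 and 12 from L4 to Day 15. Among units ending in _at the counts were 3, 5 and 4 in the 3 comparisons. From L4 to Day 6, 8 were called by the methods' t-test unadjusted, 5 by it after Benjamini-Hochberg and 8 at an adjusted p under 0.01. With no minimum fold, 35 were called from L4 to Day 15. All calls were kept in direction, and 15 of 17 from Day 6 to Day 15 held in every alternative that tested them, the exceptions being his-61 and his-67. Of 13 from L4 to Day 6 and 23 from L4 to Day 15, 3 and 19 held.

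Class medians depended on the units kept. With 1 probe set per gene, and likewise with single-gene units only, the H4 and H2B medians from Day 6 to Day 15 were 1.08 and 0.71, the H2B median from L4 to Day 15 was 1.52, and from L4 to Day 6 the H2A and H2B medians were 1.08 and 0.81. These H2B medians rest on his-62 and his-41 alone. With no filter the H2B medians were 0.96 from Day 6 and 0.94 from L4 to Day 15. With the filter at 6 they were 2.51 and 3.95, and 1.25 from L4 to Day 6. Fitting only 2 ages gave an H2B median of 0.81 from L4 to Day 6, and setting values under 4 to 4 gave 1.46 from L4 to Day 15. Among _at units the H2A, H2B and H3 classes held only his-35, his-41 and his-73, with values from Day 6 to Day 15 of -0.48, -1.28 and 2.45, from L4 to Day 15 of 0.26, -0.90 and 3.51, and for his-73 from L4 to Day 6 of 1.06, and all _at units had a median of 0.35 from L4 to Day 15. Median centring, which moved the median of all probe sets from 0.23 to 0.43 in the comparison of Day 6 with L4, gave H3 medians of 0.45 for that step and 0.84 from L4 to Day 15. Leaving out single arrays, the H2B median lay between 1.32 and 1.98 from Day 6 and between 1.00 and 2.13 from L4 to Day 15, and the H3 median between 0.58 and 0.85 from L4 to Day 15 and between 0.16 and 0.42 from L4 to Day 6.

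Replicate numbers did not pair the arrays, since the correlations of same-numbered arrays lay between -0.05 and 0.20 and not every one was over 0.1. A fit with the number as a replicate block called 13, 17 and 23 units and changed no count. The other limits are that shared units cannot be split by gene, that values near the floor of 4 understate changes, and that 3 arrays an age limit the precision.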
